A study of Mus musculus with 12 samples.

Results

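Glycam1 and 5 further genes of the endothelial sialomucin family and its sulphation were followed in the mouse retina, in 12 RNA-Seq libraries of 4 groups. The 6 genes are Glycam1, Cd34, Podxl, Emcn, Madcam1 and Chst4. They were taken by symbol from the 50559 genes of the deposited count table, and all 6 were found. The set was built around Glycam1 because of its high level in retinas given the antibody APB5, so it was chosen by its counts in APB5 against IgG and in APB5+Mino against APB5, and the values of the 6 genes in these comparisons are given as a description. Calls among them there are counted only beside the share of all genes called, and support nothing. All mice were C57BL/6J and all retinas were collected at day 28. The IgG group received control IgG and the APB5 group received APB5, a rat monoclonal antibody that blocks PDGFRβ, each as 30 µg under the skin at day 1. The IgG+Mino and APB5+Mino groups received the same injections and then minocycline, a tetracycline, into the peritoneum daily from day 5 to day 27 at 45 mg/kg. Each group held 3 libraries of whole retina, and the paper describes the replicates as separate mice, which the labels do not state.

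Sialomucins are proteins with long stretches of clustered O-linked sugars that end in sialic acid. On high endothelial venules of lymph nodes, sulphated and fucosylated forms of Glycam1, Cd34, Podxl, Emcn and Madcam1 serve as ligands on which lymphocytes begin to roll. Glycam1 is a small secreted member, also made by mammary gland, while Cd34, Podxl and Emcn are membrane proteins of endothelium in many organs. Chst4 adds the sulphate to N-acetylglucosamine that these ligands need. Blockade of PDGFRβ in the newborn mouse keeps pericytes from joining the growing retinal vessels.

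The promoters of Glycam1, the member with the largest range between groups, and of Madcam1, the only one of the 5 promoters searched with a κB match, are shown here. They are RefSeq sequences of GRCm38.p6, 250 bases before to 50 after the gene's start, on the gene's own strand and 5′ to 3′, and capitals mark κB matches. The Glycam1 window is chr15:103565032-103565331 on the minus strand and the Madcam1 window is chr10:79664309-79664608 on the plus strand.

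Glycam1: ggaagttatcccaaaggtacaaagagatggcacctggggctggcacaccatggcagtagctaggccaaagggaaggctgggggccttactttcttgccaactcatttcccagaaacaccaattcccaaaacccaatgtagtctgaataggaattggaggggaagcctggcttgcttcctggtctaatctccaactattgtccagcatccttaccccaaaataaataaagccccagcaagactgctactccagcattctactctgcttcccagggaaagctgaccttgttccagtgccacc

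Madcam1: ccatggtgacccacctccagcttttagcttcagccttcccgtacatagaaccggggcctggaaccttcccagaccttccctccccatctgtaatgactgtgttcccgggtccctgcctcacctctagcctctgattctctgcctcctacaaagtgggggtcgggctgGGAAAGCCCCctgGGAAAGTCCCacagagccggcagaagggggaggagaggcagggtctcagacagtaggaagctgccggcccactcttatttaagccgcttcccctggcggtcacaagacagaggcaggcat

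The patterns searched, on both strands, were the κB consensus, the hypoxia response core ACGTG and TATAAA. Madcam1 held 2 κB matches, which began 83 and 70 bases before the start, and 8.46% of 32851 promoter windows of this length held at least 1. Glycam1, Cd34, Emcn and Chst4 held none of the patterns in this window. ACGTG was found in 19.6% and TATAAA in 13.6% of all windows. A match is a description of letters and not of binding.

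The genes lie apart in the genome (GRCm39). Glycam1 lies at chr15:103471186-103473515 on the minus strand, Cd34 at chr1:194621029-194647172 on the plus strand and Podxl at chr6:31496418-31540924 on the minus strand. Emcn lies at chr3:137046794-137138999 on the plus strand, Madcam1 at chr10:79500209-79504371 on the plus strand and Chst4 at chr8:110753551-110766372 on the minus strand. Cd34 overlaps the antisense lncRNA Gm16897, which had 555 counts over the 12 libraries, and whether the counting used strand is not stated.

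Library totals ranged from 52740545 to 59411044 counts, so that 3 counts, taken here as the floor of detection, equalled 0.0456 to 0.0585 CPM, the count scaled to library size with TMM factors. APB5 replicate 3 stood apart from the other libraries. The summed level of 10 retinal neuron genes was 12494 CPM there and 44959 to 68959 CPM in the other libraries, and that of 10 fibroblast and pericyte genes was 761 against 82.0 to 153 CPM. Counts of Xist, which marks female cells, were 47210 or more in 3 IgG, 1 APB5 and 1 APB5+Mino library and 38 or fewer in the others, which include all 3 IgG+Mino libraries. The sex of the animals and minocycline therefore cannot be told apart between IgG+Mino and IgG. The APB5 library with high Xist was replicate 3. In values without that library, sex and the antibody cannot be told apart between APB5 and IgG either. In whole retina, fewer cells of a type and less RNA per cell cannot be told apart.

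Glycam1 was high in the APB5 libraries and below the floor of detection when minocycline was given as well. It had 13, 5 and 28 counts in the IgG libraries and 13, 11 and 10 in IgG+Mino. It had 264, 262 and 428 counts in APB5 and 2, 2 and 1 in APB5+Mino. The 3 APB5 libraries lay above all others, and the 3 APB5+Mino libraries lay below all others.

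In CPM, Glycam1 was 0.266 ± 0.201 (SD, n = 3) in IgG, 0.204 ± 0.0285 in IgG+Mino, 5.35 ± 1.00 in APB5 and 0.0312 ± 0.0108 in APB5+Mino. The mean in APB5 was 20.1-fold that in IgG, and the fitted log2 fold change (log2 change below) was 4.17 (SE 0.53). Without APB5 replicate 3 it was 4.00, and APB5 replicates 1 and 2 were nearly equal at 4.77 and 4.78 CPM. In the 5 libraries with high Xist, Glycam1 was 0.0878 to 0.484 CPM in IgG, 6.51 in APB5 and 0.0188 in APB5+Mino. In the libraries with low Xist it was 0.183 to 0.237 CPM in IgG+Mino, 4.77 and 4.78 in APB5, and 0.0357 and 0.0390 in APB5+Mino. Each set lacked 1 of the control groups, so the part of sex was not tested.

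**Figure D1:**
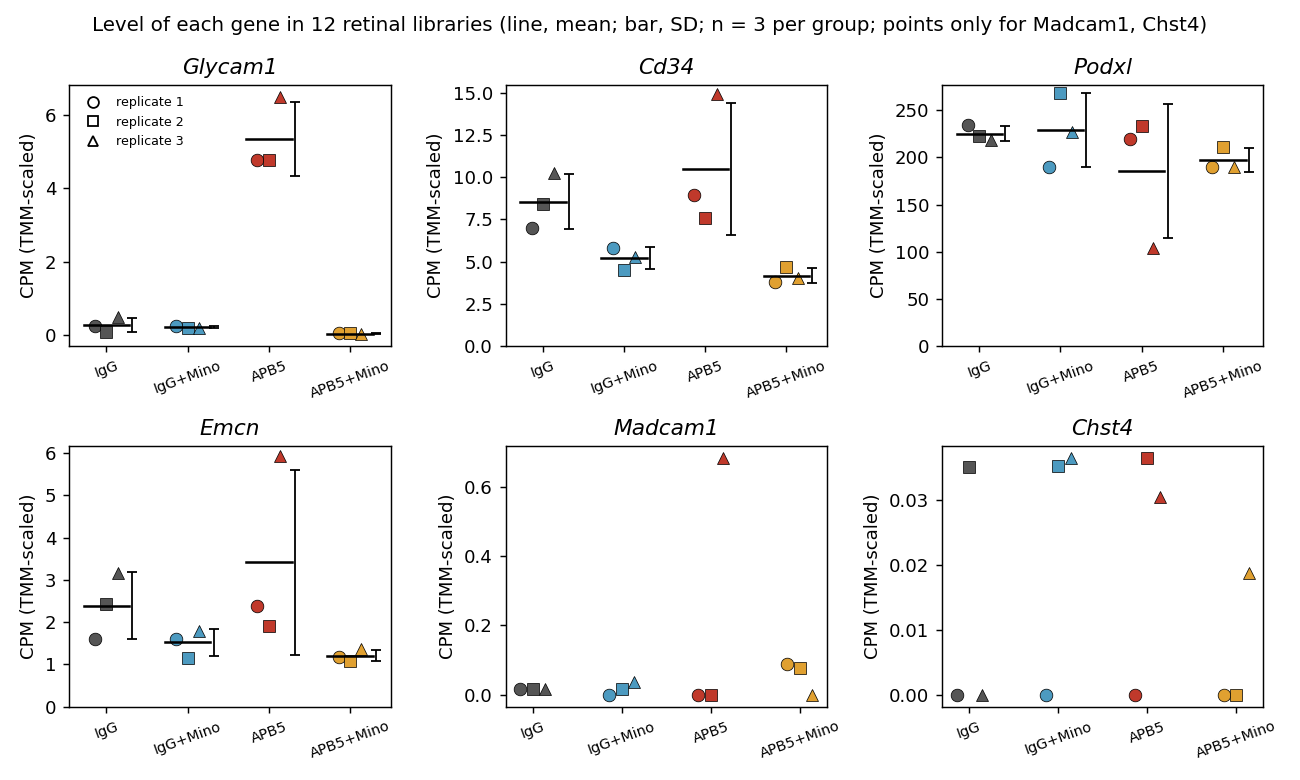
Level of each gene in CPM (linear axis) in the 12 retinal libraries, by group; symbols mark the replicate number, and for the 4 genes with a line and bar these are the mean and SD of 3 libraries. The 3 APB5 libraries sit between 4.77 and 6.51 CPM for Glycam1 and above all others, whereas for Cd34 and Emcn APB5 replicates 1 and 2 lie within the range of IgG.

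Against APB5, the summed Glycam1 counts of APB5+Mino were lower by a ratio of 174 (5 against 954 counts, scaled by library size; exact 95% interval 74.3 to 537). This interval and those for the other low ratios cover counting error only. The APB5+Mino libraries were also below both control groups. Against IgG+Mino the ratio was 6.55 (34 counts in that group; interval 2.55 to 21.5) and against IgG it was 8.58 (46 counts; interval 3.42 to 27.7). All APB5+Mino libraries were below the floor of 3 counts. With that group set at the floor, the ratios of mean CPM were 95.3 against APB5, 3.64 against IgG+Mino and 4.74 against IgG. In the comparisons with IgG+Mino and with IgG, Glycam1 failed the filter on low counts. Each was therefore tested alone by an exact permutation test of mean log2 CPM with no prior count. It gave a two-sided p of 0.1, the smallest that 3 against 3 libraries allow. IgG+Mino and IgG did not differ detectably in Glycam1, with a log2 change of −0.33 (edgeR, SE 0.51, adjusted p = 0.857).

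The genes beside Glycam1 did not share its range. Ppp1r1a, 24731 bases away and chosen, like Pde1b, for its position, was 55.6 ± 11.9 CPM in IgG, 53.2 ± 5.78 in IgG+Mino, 58.1 ± 3.62 in APB5 and 41.2 ± 2.82 in APB5+Mino. Pde1b, 31480 bases away, was 82.4 to 94.5 CPM in the group means. On the other side the nearest protein-coding genes, Mucl1 and Mucl2, had no count in any library. The mammary and lacrimal gland markers were mixed. Aqp5, a water channel of glands and cornea, was 0.753 to 2.08 CPM over the 12 libraries, and Krt12, a corneal keratin, was 0.176 to 2.81 CPM. Csn2, Wap and Csn1s2a, which encode milk proteins, had no count in any of the 12 libraries, and Csn3 and Lalba reached 2.34 and 1.76 CPM in APB5 replicate 3 and at most 0.199 and 0.110 CPM elsewhere. Csn2, Wap, Csn1s2a and Lalba were chosen after their values were seen.

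Among 15812 genes with a mean of at least 1 CPM, the 5 whose log2 CPM followed Glycam1 most closely over the 12 libraries were Ndufa4l2 (r = 0.97), Tnnt2 (0.96), Apln (0.96), Ccdc71l (0.95) and Fgf2os (0.94). These values describe libraries that share group, depth and tissue composition, and they were 0.96, 0.95, 0.95, 0.94 and 0.92 without APB5 replicate 3. Ndufa4l2, a mitochondrial protein induced by hypoxia, was 3.33 CPM in IgG, 2.56 in IgG+Mino, 12.01 in APB5 and 1.71 in APB5+Mino. Apln, the ligand of the apelin receptor and a gene of sprouting endothelium, was 1.87, 1.80, 3.96 and 1.50 CPM in the same order. Fgf2os, transcribed antisense to Fgf2, was 0.394, 0.724, 8.29 and 0.328 CPM.

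Cd34 and Emcn, both membrane sialomucins of endothelium, moved with each other and only in part with Glycam1. Cd34 was 6.97, 8.39 and 10.2 CPM in the IgG libraries and 5.79, 4.49 and 5.28 in IgG+Mino. It was 8.96, 7.59 and 14.9 CPM in APB5 and 3.80, 4.68 and 4.03 in APB5+Mino. APB5 replicate 3 was the highest of the 12 libraries, and APB5 replicates 1 and 2 lay within the range of IgG.

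The log2 change of Cd34 in APB5 against IgG was 0.30 (SE 0.29), and −0.04 without APB5 replicate 3. Between APB5+Mino and APB5 it was −1.33 (SE 0.27), and the groups did not overlap. The mean of Cd34 in APB5 was 10.5 CPM, and 8.27 without APB5 replicate 3, against 4.17 in APB5+Mino. In the libraries with low Xist, Cd34 was 4.49 to 5.79 CPM in IgG+Mino, 7.59 and 8.96 in APB5, and 3.80 and 4.68 in APB5+Mino. The genes most like Cd34 over the 12 libraries were Tie1 (r = 0.99), Ramp2 (0.97), B4galt4 (0.97), Pdia6 (0.96) and Mppe1 (0.96). Tie1, an endothelial receptor kinase, was 6.06 CPM in IgG, 3.91 in IgG+Mino, 8.40 in APB5 and 2.95 in APB5+Mino, and Ramp2, a receptor partner for adrenomedullin, was 6.44, 4.28, 8.13 and 3.83 CPM.

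Emcn was 1.59, 2.42 and 3.16 CPM in IgG and 1.60, 1.16 and 1.79 in IgG+Mino. It was 2.38, 1.92 and 5.93 CPM in APB5 and 1.18, 1.09 and 1.36 in APB5+Mino. The high value in APB5 again came from replicate 3. The log2 change in APB5 against IgG was 0.52 (SE 0.47), and −0.15 without that library. Between APB5+Mino and APB5 it was −1.48 (SE 0.44), and −0.82 without that library. Over the 12 libraries, log2 CPM of Cd34 and Emcn correlated by 0.95, Glycam1 with Cd34 by 0.78 and Glycam1 with Emcn by 0.70. These were 0.92, 0.68 and 0.55 without APB5 replicate 3. The genes most like Emcn were Cryl1 (r = 0.97), Fcgrt (0.96), Prdx6 (0.96), Lsr (0.96) and Gm6548 (0.96). Fcgrt, the neonatal Fc receptor that carries IgG across endothelium, was 10.2 CPM in IgG, 6.69 in IgG+Mino, 17.4 in APB5 and 4.85 in APB5+Mino.

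Podxl encodes podocalyxin, which neurons make as well as endothelium. It was by far the most abundant of the 6, and its libraries overlapped between APB5 and each other group. It was 235, 223 and 219 CPM in IgG, 190, 269 and 227 in IgG+Mino, 219, 233 and 104 in APB5, and 190, 212 and 189 in APB5+Mino. The single low value was APB5 replicate 3, the library low in retinal neuron genes, whose part in this value was not tested. The log2 change in APB5 against IgG was −0.28 (SE 0.28), and 0.01 without that library. Between APB5+Mino and APB5 it was 0.08 (SE 0.28). The correlation of Podxl with Cd34 was −0.47 over 12 libraries and 0.28 without APB5 replicate 3, and with Emcn it was −0.64 and 0.11. The genes most like Podxl were Ccdc117 (r = 0.97), Fbxl5 (0.97), Madd (0.97), Mef2c (0.97) and Hk2 (0.97), each 0.80 to 0.86 without APB5 replicate 3. None of these is an endothelial marker of the list used here.

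Madcam1, the addressin of mucosal venules, was found in number in a single library. It had 1, 1 and 1 counts in IgG, 0, 1 and 2 in IgG+Mino, 0, 0 and 45 in APB5, and 5, 4 and 0 in APB5+Mino. APB5 replicate 3, with 45 counts, was also the library with the most B cell transcripts. Cd79a, a signalling chain of the B cell receptor, was 2.63 CPM there and 0.0377 to 0.140 CPM in the others, and Ms4a1, the B cell antigen CD20, was 0.608 CPM there and had no count in the others. Selp, which encodes P-selectin, was 0.441 CPM in that library and at most 0.0361 CPM in the others. These 3 genes were chosen after their values were seen, and the part of other cells in the Madcam1 count was not tested.

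Chst4 was at or below the floor of detection in every library, with 0, 2 and 0 counts in IgG, 0, 2 and 2 in IgG+Mino, 0, 2 and 2 in APB5, and 0, 0 and 1 in APB5+Mino. No difference in Chst4 was detectable at this depth. Madcam1 and Chst4 passed the filter on low counts in none of the 5 comparisons.

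Per kilobase of canonical transcript, the order of the levels in IgG was Podxl (41.8 CPM per kb), Cd34 (3.46), Emcn (0.912), Glycam1 (0.419), Madcam1 (0.0108) and Chst4 (0.00281). Emcn and Glycam1 overlapped between libraries of IgG. In APB5, Glycam1 stood next to Podxl with 8.43 ± 1.57 CPM per kb (n = 3). Podxl was 34.4 ± 13.1, Cd34 4.25 ± 1.57 and Emcn 1.30 ± 0.837 CPM per kb. The Glycam1 libraries, at 7.51 to 10.2 CPM per kb, lay above the Cd34 libraries at 3.08 to 6.04. In APB5+Mino, Glycam1 was 0.0491 CPM per kb, below Cd34 (1.69) and Emcn (0.461) and near Madcam1 (0.0344), which it overlapped. The endothelial adhesion gene Pecam1 was 3.74, 2.97, 3.34 and 3.30 CPM per kb in IgG, IgG+Mino, APB5 and APB5+Mino, close to Cd34 in IgG.

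Of the 6 genes, 4 passed the filter in APB5 against IgG and 0 were called. A call needed an adjusted p no higher than 0.05 and a log2 change of 1 or more either way. Of the 20350 genes tested, 0% were called by edgeR's quasi-likelihood test, 7.23% had an unadjusted p under 0.05, and DESeq2 gave 1 call among the 6, that of Glycam1, which its choice by these counts fixes. The groups did not overlap for 1 of the 6, Glycam1, against 15.7% of all genes tested. In APB5+Mino against APB5, 2 of the 6 were called, Glycam1 and Cd34, against 1.66% of all genes, and Glycam1, Cd34 and Emcn did not overlap, against 46.5% of all genes. With the replicate number as a block, 0 of the 6 were called in that comparison. Both comparisons chose Glycam1, so nothing is read from its place in these counts.

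**Figure D2:**
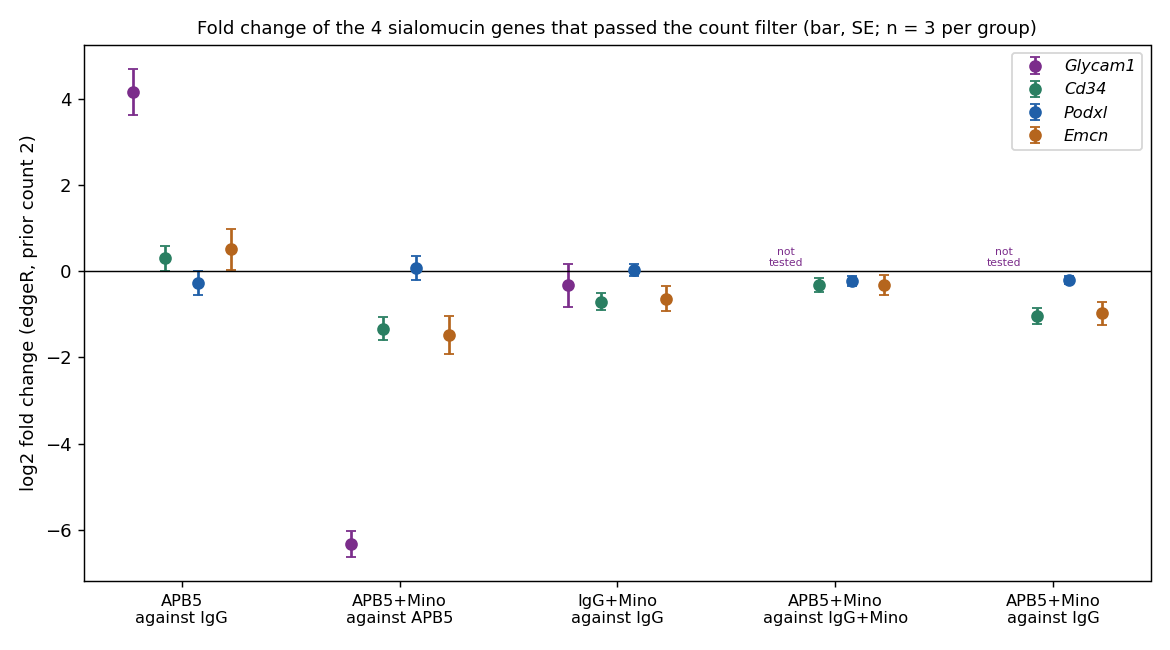
Log2 fold change with its SE (vertical axis) of Glycam1, Cd34, Podxl and Emcn in the 5 comparisons (3 libraries per group, edgeR fit of the groups compared). Glycam1 spans from 4.17 in APB5 against IgG to −6.34 in APB5+Mino against APB5, a value that depends on the prior count, while Podxl stays between −0.28 and 0.08; Glycam1 was not tested in the last 2.

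In the comparisons that did not choose Glycam1, only Cd34 was called, and only in APB5+Mino against IgG. Its log2 change there was −1.04 (edgeR, SE 0.17, adjusted p = 0.00601), lower in 3 of 3 libraries, and 4.04% of 20183 genes were called. The call depended on single libraries through the fold threshold, since the value was −0.88 without IgG replicate 3 and −0.97 without APB5+Mino replicate 1. It was −0.79 with adjusted p = 0.106 when Xist entered an edgeR fit of all libraries. Relative to endothelial genes the difference of Cd34 was smaller, as given below. Emcn had a log2 change of −0.97 (edgeR, SE 0.27, adjusted p = 0.0288), just under the fold threshold, and was called without IgG replicate 1 (−1.19). Podxl was −0.20 (edgeR, SE 0.09, adjusted p = 0.115). The groups did not overlap for 4 of the 6 (Glycam1, Cd34, Podxl and Emcn), against 46.7% of all genes tested.

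Minocycline with control IgG gave no call among the 6, against 0.0298% of 20143 genes. Cd34 was lower in IgG+Mino than in IgG in all 3 libraries, with a log2 change of −0.71 (edgeR, SE 0.19, adjusted p = 0.585), and Emcn was −0.63 (edgeR, SE 0.30, adjusted p = 0.585). Podxl was 0.03 (edgeR, SE 0.14, adjusted p = 0.952). The groups did not overlap for 1 of the 6, Cd34, against 14.4% of all genes tested. Here sex goes with the groups.

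APB5+Mino against IgG+Mino, the effect of the antibody under minocycline, likewise gave no call among the 3 tested, against 1.23% of 20049 genes. The log2 changes were −0.32 for Cd34 (edgeR, SE 0.16, adjusted p = 0.218), −0.22 for Podxl (edgeR, SE 0.12, adjusted p = 0.267) and −0.32 for Emcn (edgeR, SE 0.23, adjusted p = 0.380). Glycam1 was the only one of the 6 whose groups did not overlap, against 35.2% of all genes tested. It was the lowest in APB5+Mino, as described with its counts.

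In the comparisons that chose Glycam1, its range remained when set against the amount of endothelial RNA, and that of Cd34 and Emcn shrank. Each level was taken relative to the mean log2 CPM of 14 pan-endothelial genes (Pecam1, Cdh5, Tie1, Tek, Kdr, Flt1, Erg, Esam, Cldn5, Eng, Robo4, Egfl7, Ecscr and Sox18). These log2 CPM values include a prior count of 2. It is similar in size to the Glycam1 counts of APB5+Mino, so the values and SE of Glycam1 for that group depend on it. For Glycam1 the difference of APB5 from IgG was 4.13 (SE 0.56) on this log2 scale, against 4.38 (SE 0.62) before, and that of APB5+Mino from APB5 was −5.51 (SE 0.15), against −6.33 (SE 0.21). For Cd34 the difference of APB5 from IgG was 0.00039 (SE 0.13), against 0.25 (SE 0.33). That of APB5+Mino from APB5 was −0.45 (SE 0.18), against −1.27 (SE 0.30), and the groups still did not overlap. For Emcn, APB5+Mino minus APB5 was −0.47 (SE 0.33), against −1.30 (SE 0.50), and the groups overlapped. For Podxl it was 0.99 (SE 0.56), against 0.17 (SE 0.38). These values are a description, since Tie1, the gene most like Cd34, is among the 14 endothelial genes. In APB5+Mino against IgG the difference of Cd34 was −0.45 (SE 0.16), against −1.01 (SE 0.18). That of Emcn was −0.35 (SE 0.22), against −0.92 (SE 0.30), and its groups overlapped. Podxl changed sign there, with 0.37 (SE 0.15), against −0.19 (SE 0.06), and its APB5+Mino libraries all lay above IgG in place of below.

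**Figure D3:**
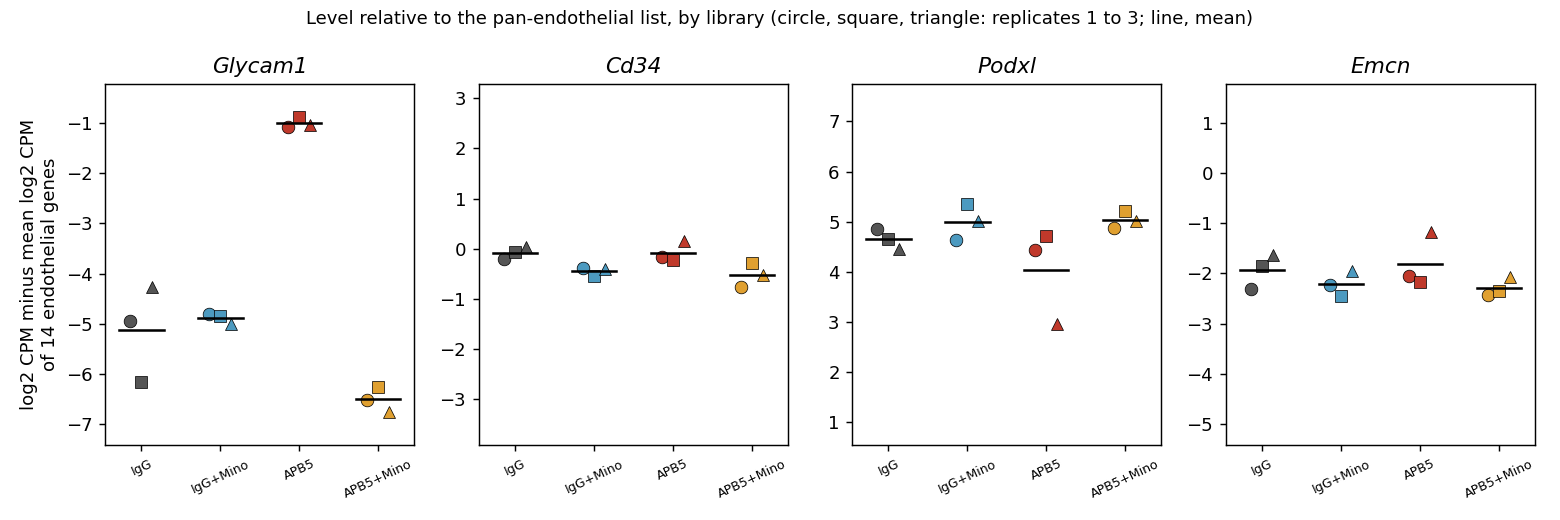
Level of 4 genes relative to the mean log2 CPM of 14 pan-endothelial genes (vertical axis, log2 units, with the same span in each panel), by library and group; horizontal lines are group means. Glycam1 lies near −0.997 in APB5, between −6.17 and −4.26 in IgG and near −6.51 in APB5+Mino, while the group means of Cd34 all lie between −0.52 and −0.08.

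The 14 endothelial genes were at 255 to 313 summed CPM in IgG, 239 to 299 in IgG+Mino, 307 to 394 in APB5 and 218 to 243 in APB5+Mino. In summed CPM, their APB5+Mino libraries overlapped those of IgG+Mino and lay below those of IgG and APB5. In the mean log2 CPM used for the relative levels there was no such overlap. It was 2.70, 2.52 and 2.55 in APB5+Mino, 2.93, 2.72 and 2.81 in IgG+Mino, and 3.01, 3.15 and 3.32 in IgG. Relative to APB5, all 14 fitted values in APB5+Mino were negative and 2 genes were called lower, Tie1 (−1.50, SE 0.28, adjusted p = 0.0461, edgeR) and Cldn5, a tight junction claudin (−1.68, SE 0.16, adjusted p = 0.0417, edgeR). Neither kept the call with the replicate block (adjusted p = 0.0641 for each, edgeR). Pecam1 was −0.02 (SE 0.11). In APB5+Mino against IgG, Tie1, Cldn5 and Tek, the angiopoietin receptor, were called lower. Flt1 and Kdr, the VEGF receptors and the most abundant of the list, were not called in either comparison.

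The other genes of the pathway comprised 67 symbols in 6 lists, of which 65 were in the table and 55 were tested in APB5 against IgG. None of the 55 was called by edgeR in that comparison, and 3, Icam1 (chosen after its values were seen), Lrg1 and Vwf, were called higher by DESeq2. In APB5+Mino against APB5, 1 of 55 was called lower, Vwf, and 0 with the replicate block. The median log2 change over all genes tested was −0.002 in APB5 against IgG and −0.02 in APB5+Mino against APB5. The medians of lists refer to the former and are followed by the value without APB5 replicate 3.

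The enzymes that build the sugar ligand went both ways, with a median of 0.15 over 15 genes and −0.002 without that library. The most positive were B3gnt3 (1.49, SE 0.53), St3gal6 (0.98, SE 0.64), Gcnt1 (0.62, SE 0.68) and St3gal4 (0.59, SE 0.22), and without that library they were 0.84, −0.13, −0.68 and 0.30. These 4 genes were chosen after their values were seen. The most abundant were St3gal1, a sialyltransferase, B4galt1, a galactosyltransferase, and Chst2, which shares its sulphation step with Chst4. Chst2 was 50.6, 64.1 and 72.8 CPM in IgG and 70.6, 80.6 and 111 in APB5, with a log2 change of 0.49 (SE 0.21). St3gal1 was 0.02 (SE 0.26) and B4galt1 −0.31 (SE 0.18). Fut7, the fucosyltransferase of selectin ligands, was 0.210, 0.439 and 0.311 CPM in IgG and 0.553, 0.741 and 0.847 in APB5+Mino, where it was called higher than in IgG (1.06, SE 0.33, adjusted p = 0.0454, edgeR), a call lost with the replicate block (adjusted p = 0.0513, edgeR). In APB5 against IgG it was −0.04 (SE 0.47). Glycam1 was at its lowest in the group in which the mean of Fut7 was highest.

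Other sialomucins had a median of 0.14 over 7 tested genes, and 0.08 without that library. Podxl2, the endoglycan relative of podocalyxin, was 262, 276 and 300 CPM in IgG and 284, 252 and 310 in APB5. Cd164, or endolyn, was 0.19 (SE 0.19). Cd44, a hyaluronan receptor, was 7.85, 8.81 and 9.45 CPM in IgG and 15.7, 14.4 and 71.9 in APB5, with a log2 change of 1.97 (edgeR, SE 0.62, adjusted p = 0.664). All 3 APB5 libraries lay above IgG, and the highest was again replicate 3.

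Selectins and their leukocyte partners had a median of 0.98 over 5 tested genes and 0.30 without APB5 replicate 3. Selp and Sele, the genes of the endothelial P- and E-selectins, failed the filter, and Sele was chosen after its values were seen. Itga4, the α4 integrin chain that binds Madcam1 and Vcam1, was 6.43, 7.92 and 5.85 CPM in IgG and 7.82 to 10.6 in APB5, and it was 0.50 (edgeR, SE 0.21, adjusted p = 0.664). Itgb2, the β2 integrin chain, was 0.403, 0.684 and 0.829 CPM in IgG and 0.994, 0.730 and 6.48 in APB5. Cxcr4, a chemokine receptor, was called lower in APB5+Mino against IgG (−1.03, SE 0.21, adjusted p = 0.0105, edgeR).

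Genes of veins and high endothelial venules had the highest median of the pathway lists, 1.12 over 14 tested genes and 0.41 without APB5 replicate 3, and 13 of the 14 fitted values were positive. Vwf, which encodes von Willebrand factor, was 6.34, 7.60 and 11.4 CPM in IgG, 4.02, 4.09 and 4.13 in IgG+Mino, 17.4, 17.6 and 23.1 in APB5, and 6.95, 5.32 and 4.82 in APB5+Mino. Its 3 APB5 libraries lay above all others, as those of Glycam1 did. Relative to APB5, APB5+Mino was changed by −1.76 (edgeR, SE 0.20, adjusted p = 0.0430), a call lost with the replicate block.

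Lrg1, a secreted glycoprotein of venules, was 0.158, 0.0878 and 0.121 CPM in IgG, 0.795, 1.06 and 6.40 in APB5, and 0.393, 0.468 and 0.414 in APB5+Mino. Its mean in IgG+Mino was 0.0660 CPM, near the floor of detection. Unlike Glycam1, Lrg1 was called higher in APB5+Mino than in IgG+Mino (2.16, SE 0.36, adjusted p = 0.0169, edgeR) and than in IgG (1.53, SE 0.34, adjusted p = 0.0134, edgeR). The first of these values rests on few counts in IgG+Mino. Ch25h, cholesterol 25-hydroxylase, was also called higher in APB5+Mino than in IgG+Mino (1.18, SE 0.30, adjusted p = 0.0459, edgeR). None of the 14 was called in APB5 against IgG, where the 3 most abundant were Ackr1, the venular chemokine scavenger (0.04, SE 0.19), Enpp2, or autotaxin (0.01, SE 0.15), and Nr2f2, the venous transcription factor COUP-TFII (0.17, SE 0.16).

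Lymphotoxin and non-canonical NF-κB genes, a pathway known to maintain high endothelial venules, had a median of 0.26 over 8 tested genes and 0.20 without APB5 replicate 3. Traf3, Chuk and Map3k14, the most abundant, were 0.12 (SE 0.13), −0.22 (SE 0.16) and 0.26 (SE 0.16) in APB5 against IgG. The adaptors that tie sialomucins to actin had a median of 0.35 over 6 genes and 0.11 without that library. Rdx, or radixin, was −0.03 (SE 0.15), Crkl, which binds Cd34, was −0.06 (SE 0.20), and Msn, or moesin, was 1.04 (SE 0.38), with 91.0 CPM in APB5 replicate 3 and 23.3 to 37.6 CPM in the other libraries.

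**Figure D4:**
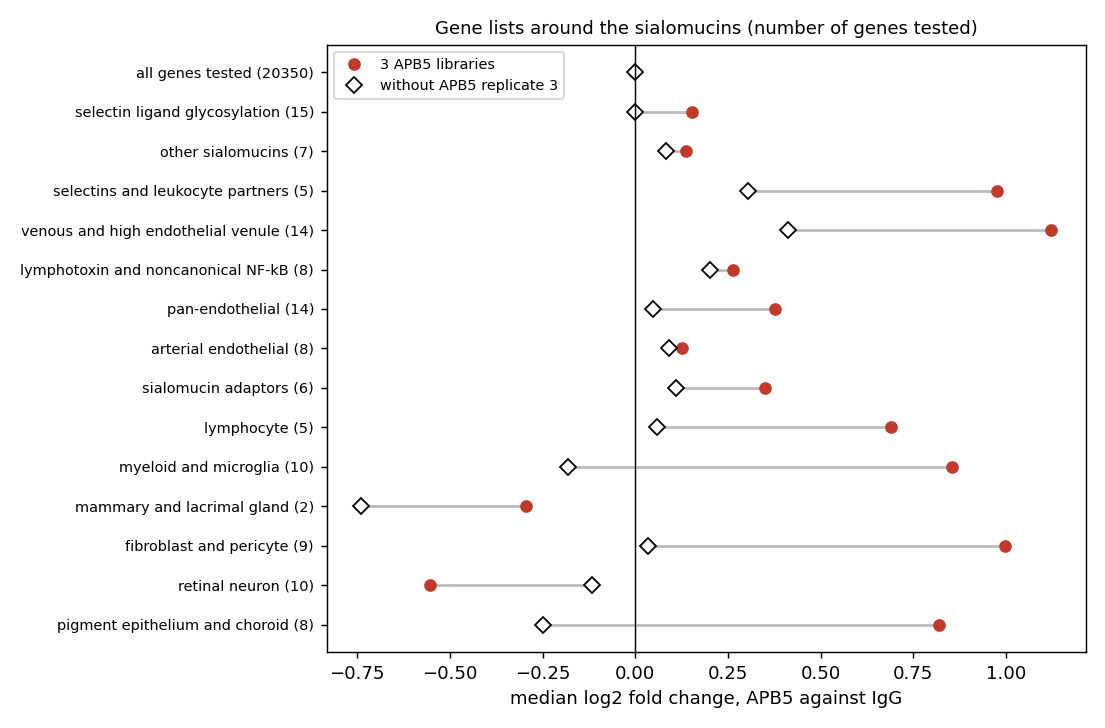
Median log2 change in APB5 against IgG (horizontal axis) of each gene list and of all genes tested, with the 3 APB5 libraries (filled circles) and without APB5 replicate 3 (open diamonds); the number of genes tested is in brackets. The median of the venous and high endothelial venule list moves from 1.12 to 0.41 and that of the myeloid list from 0.85 to −0.18 when that library is left out. That library is also the APB5 library with high Xist.

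Markers of the other cell types that could make or bind these proteins moved with the same library. The 12 lymphocyte genes summed to 12.3 CPM in APB5 replicate 3 and to 1.77 to 2.90 CPM in the other libraries. Of the 12 genes, 0 to 3 had no count in each APB5 library, 3 or 4 in each IgG library and 4 to 6 in each library given minocycline. The 10 myeloid and microglia genes summed to 162 CPM there and to 20.8 to 66.1 CPM elsewhere. Their median log2 change in APB5 against IgG was 0.85, and −0.18 without it. In the values without that library sex goes with the groups, and the part of other cells in the Glycam1 level was not tested. The log2 change of Glycam1 was then 4.00. The medians of the lymphocyte and fibroblast lists were 0.06 and 0.03, against 0.69 and 1.00 with that library. Those of the 14 pan-endothelial and 8 arterial endothelial genes were 0.38 and 0.13 with that library and 0.05 and 0.09 without it. The 8 pigment epithelium and choroid genes had a median of 0.82 with it and −0.25 without it, and the 10 retinal neuron genes −0.55 and −0.12. Of the mammary and lacrimal gland list only 2 of 12 genes were tested. In APB5+Mino against IgG, 8 of the 10 myeloid genes were called lower, among them Cx3cr1 (−3.31, SE 0.42, adjusted p = 0.00412, edgeR), alongside the lower Cd34 of that comparison. Their part in the values of Cd34 and Emcn was not tested.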

How the data were processed

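Poly-A RNA of 12 retinas was sequenced in strand-specific single reads. The authors aligned them with DRAGEN (version not given in the sources used here) to mm39 with NCBI annotation, after bcl2fastq 2.20, and deposited the unnormalized count of reads per gene. Their deposited transcript tables give a signal per group, the mean normalized count, for 2 groups at a time and normalized separately, and these are printed as the authors' means. The columns of fold changes and p-values in the deposited comparison tables, and 3 repeated count columns, were not used. Whether the counting used strand is not given in the sources used here.

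The 6 genes and all lists were chosen with earlier results of these data known. R 4.3.3 with edgeR 4.0.16 and DESeq2 1.42.0 was used. Counts were filtered by filterByExpr, scaled by TMM and fitted per pair of groups by edgeR's quasi-likelihood test (prior count 2), with Benjamini-Hochberg adjustment over all genes tested. SE was the log2 change divided by the root of F. The scripts were tested on simulated data.

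Named genes are the 6 genes, list genes called in any of 5 comparisons, the 3 of highest mean CPM per list, and the 5 most correlated with each of Glycam1, Cd34, Podxl and Emcn among genes of at least 1 CPM. Others are said to have been chosen after their values were seen. Coordinates and transcript lengths are those of GENCODE on GRCm39. No 2 libraries of a group agreed within sampling noise. The deviations of same-numbered libraries correlated by 0.119 to 0.169 in APB5+Mino against APB5, so the numbers were taken to pair these libraries, and in each other comparison at least 1 correlation was under 0.1. The labels do not say what a number marks.

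Alternatives were a block for the replicate number, Xist as a covariate, 1 fit of all 12 libraries, leaving out each library in turn, DESeq2, scaling by RLE or by library size alone, no count filter or a minimum of 10 counts in each library, and levels relative to endothelial genes.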

Additional observations from a re-analysis of the deposited data

Results flagged for a closer look

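The Glycam1 libraries lay on opposite sides of their controls without and with minocycline. Without it, every APB5 library lay above every IgG library, with a difference in mean log2 CPM of 4.38 (SE 0.62, n = 3 per group), the comparison by which the gene was chosen. With it, every APB5+Mino library lay below every IgG+Mino library, with a difference of −1.85 (SE 0.17), which rests on 5 against 34 counts. Both differences include a prior count of 2, similar in size to the APB5+Mino counts, which shrinks the second difference and its SE. The exact permutation test, on log2 CPM with no prior count, gave a two-sided p of 0.1, the smallest that 3 against 3 libraries allow. The difference between these effects was not tested.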

How the results depend on the processing

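Depth limited Glycam1 in APB5+Mino and Chst4, at 2 counts or fewer in each library, and Madcam1, at 5 or fewer in all but APB5 replicate 3. Of the 6 genes in APB5 against IgG, the count called was 1 in place of 0 with DESeq2, no filter, all 12 libraries and the Xist covariate, and 0 to 1 with a library left out, the 1 being Glycam1 without APB5 replicate 3. Of the pathway genes there, 3 were called by DESeq2 and 20 with the Xist covariate. In APB5+Mino against APB5, the count of the 6 was 1 with library size only and with at least 10 counts in every library, and 0 to 3 with a library left out. It was 0 without any 1 APB5+Mino library, 1 (Glycam1) without APB5 replicate 1 or 3, and 3 without APB5 replicate 2. The count of pathway genes there was 0 with library size only, 13 with DESeq2, 4 with no filter, 2 with at least 10 counts in every library, 15 with all 12 libraries, 15 with the Xist covariate, and 0 to 13 with a library left out (5 without APB5 replicate 3 and 13 without APB5 replicate 2). With no filter, APB5+Mino against IgG+Mino gave 1 of the 6, Glycam1. For APB5+Mino against IgG it was 2 with no filter and with all 12 libraries (Cd34 and Glycam1), and 0 to 2 with a library left out. In APB5 against IgG, the signs of Cd34, Emcn and Podxl turned without APB5 replicate 3, as given above. In the comparisons that did not choose Glycam1, fitted signs turned only in IgG+Mino against IgG and, for Podxl with the Xist covariate (0.0016), in APB5+Mino against IgG+Mino. None of these was a call. Relative to endothelial genes, the difference in mean log2 CPM of Podxl turned from −0.19 to 0.37 in APB5+Mino against IgG. It turned from −0.20 to 0.03 in APB5+Mino against IgG+Mino, and that of Glycam1 from −0.10 to 0.24 in IgG+Mino against IgG. In IgG+Mino against IgG, Podxl was −0.053 with library size only and −0.50 with the Xist covariate, and ranged from −0.094 to 0.15 with a library left out. Emcn was 0.15 with the Xist covariate, and Glycam1 ranged from −0.70 to 0.32, positive without IgG replicate 3. The cause of these changes was not tested.

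With the replicate block in APB5+Mino against APB5, 0 of the 6 and 0 of the pathway genes were called, and the values were −6.32 for Glycam1 and −1.27 for Cd34. In the other comparisons, where the numbers were not taken to pair the libraries, the block left the count of the 6 as it was (0 in APB5 against IgG, IgG+Mino against IgG and APB5+Mino against IgG+Mino, and 1, Cd34, in APB5+Mino against IgG).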

Other observations

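The authors' transcript means divided the genes further, with no error, since they are 1 value per group. Nearly all of the Glycam1 signal came from NM_008134.3, with an authors' mean of 15.5 in IgG and 304 in APB5, and NM_001289587.1 was 0.179 and 7.43. For Cd34, NM_133654.3 held 71.5% of the signal in IgG, 71.0% in APB5, 66.0% in APB5+Mino and 68.3% in IgG+Mino. For Emcn the share of NM_016885.2 ranged widely, from 35.3% in IgG to 57.7% in APB5, 24.9% in APB5+Mino and 0.215% in IgG+Mino, while NM_001163522.1 had a mean of 87.2 in IgG and 86.0 in IgG+Mino. Madcam1 in APB5 was assigned to NM_013591.3 (13.4), and in APB5+Mino mostly to NM_001358785.1 (2.73). The shares use 3 tables normalized separately, and their spread between libraries is unknown.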
